A study of Oryza sativa Japonica Group with 6 samples.

Results

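Lipid transfer protein genes were followed in rice grains of an sgs3 mutant and of its wild type, the line Zhenong 34. The genes were taken by their deposited description, which had to contain the words lipid-transfer protein or lipid transfer protein, and 41 of 55983 listed genes did. No measured value entered the choice. The labels describe both groups as grains, give EMS as the treatment of the sgs3 group and control as that of the wild-type (WT) group, and assign 3 libraries of messenger RNA to each. EMS (ethyl methanesulfonate) is a chemical mutagen. The mutated gene, the stage of the grains and whether plants or grains were pooled are not in the labels. Since separate plants are not stated, the p-values below cover only library-to-library variation, and this may be technical.

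Non-specific lipid transfer proteins are small secreted proteins in which conserved cysteines hold a bundle of helices around a greasy cavity. They bind fatty acids, phospholipids and other lipids in the test tube, and in plants they are linked to the building of cutin and wax layers, to defence and to the extracellular trafficking of lipids. In cereal grains the classical types are abundant in the aleurone, the oil- and protein-rich layer around the starchy endosperm, and barley LTP1 and LTP2 transcripts serve as markers of that layer. Type 1 proteins are the longer and type 2 the shorter classical form. Glycosylphosphatidylinositol-anchored members are tethered to the outer face of the plasma membrane, and EARLI and DIR1 proteins are more distant relatives known from Arabidopsis.

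Levels were given as TPM, a transcript's share of its library and a unit scaled for transcript length in which different genes can be set side by side. TPM keeps no read depth, so the depth behind each value is unknown. TPM values summed to between 967526 and 994306 per library. Of the 2 genes described as SUPPRESSOR OF GENE SILENCING 3, LOC_Os12g09580 had 8.73, 11.59 and 29.24 TPM in sgs3 replicates 1, 2 and 3, against 94.92, 40.86 and 53.45 TPM in WT replicates 1, 2 and 3. The other, LOC_Os12g09590, had 2.03, 3.40 and 2.61 TPM in sgs3, against 3.36, 3.67 and 3.48 TPM in WT, and did not pass (limma adjusted p = 0.417). Here and below, values follow this order of replicates. WT replicate 1 stood apart: its starchy endosperm transcripts, the glutelins, prolamins and granule-bound starch synthases, summed to 43095 TPM, against 302806 and 232377 TPM in the other WT libraries. In the bulk RNA of whole grains, fewer cells of a type and less RNA per cell cannot be told apart.

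Most lipid transfer genes did not pass the test of a difference between sgs3 and WT grains. Of the 41 genes, 26 had 1 TPM or more in 3 or more libraries and entered the test, and 2 of them fell in sgs3 grains (limma on log2(TPM + 1), adjusted p under 0.05 over all 16352 genes tested). Both were annotated as type 2 proteins or as probable LTP 2, and 1 of them, LOC_Os10g36170, reached the filter only through the WT group. Over all tested genes, 26.3% were called lower in sgs3, so the members' share of lower calls did not exceed this background. No member rose, against 1.55% of all tested genes, and at an unadjusted p under 0.05 the counts were 3 lower and 1 higher, beside backgrounds of 48.9% and 2.65%. The groups did not overlap in 5 members, against 56.3% of all tested genes. As a log2 difference (sgs3 minus WT), the median was -0.36 over the members tested and -0.86 over all genes tested.

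The general shift of TPM values matters to every direction given here. A TPM value is a share of its library, and storage transcripts take a large and unequal part of each. Median-of-ratios scaling divided each library by a size factor, 0.504, 0.687 and 0.955 in sgs3, against 2.02, 1.08 and 1.54 in WT. It therefore raised every sgs3 value and lowered every WT value above 0. After this scaling the median of all tested genes was 0.0028, and that of the members was 0.66. Log2 differences were negative in 16 and positive in 10 members on TPM, and negative in 4 and positive in 22 after scaling. No member passed after scaling in either direction, beside backgrounds of 0.978% lower and 1.6% higher calls. At an unadjusted p under 0.05 there were then 10 higher and 2 lower members, against 16.2% and 16.9% of all tested genes. The groups did not overlap in 9 members after scaling, 2 lower and 7 higher in sgs3, against 37.9% of all tested genes (19.4% lower and 18.5% higher). The 7 higher were all type 1 genes, LOC_Os11g02350, LOC_Os11g02389, LOC_Os11g02400, LOC_Os11g24070, LOC_Os12g02310, LOC_Os12g02320 and LOC_Os12g02330. The lowest adjusted p of a member after scaling was 0.0510 (limma), for LOC_Os11g02400. Of the 26 members, 23 lay above the median fold change of all genes on TPM and 22 after scaling.

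The summed level of the family overlapped between the groups on TPM but not after scaling. Summed over the 41 genes it had 2601, 2677 and 2517 TPM in sgs3 grains, against 1460, 1638 and 3878 TPM in WT grains. The mutant libraries lay close together and inside the wide range of the WT libraries. The means were 2599 ± 80.2 TPM in sgs3 and 2325 ± 1348 TPM in WT (SD, n = 3 each), and their difference of 273 TPM was smaller than the WT spread. Without WT replicate 3 the difference was 1050 TPM, without WT replicate 1 it was -159 TPM and without WT replicate 2 it was -70.5 TPM, so single WT libraries decide its size and its sign. After scaling, the sums of sgs3 libraries lay between 2636 and 5163 and those of WT libraries between 722 and 2520, on the scale of TPM divided by the size factor. Every sgs3 library was then above every WT library, by a narrow margin between 2636 and 2520. The size factors themselves raised every sgs3 sum and lowered every WT sum, so this separation came with the scaling.

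**Figure D1:**
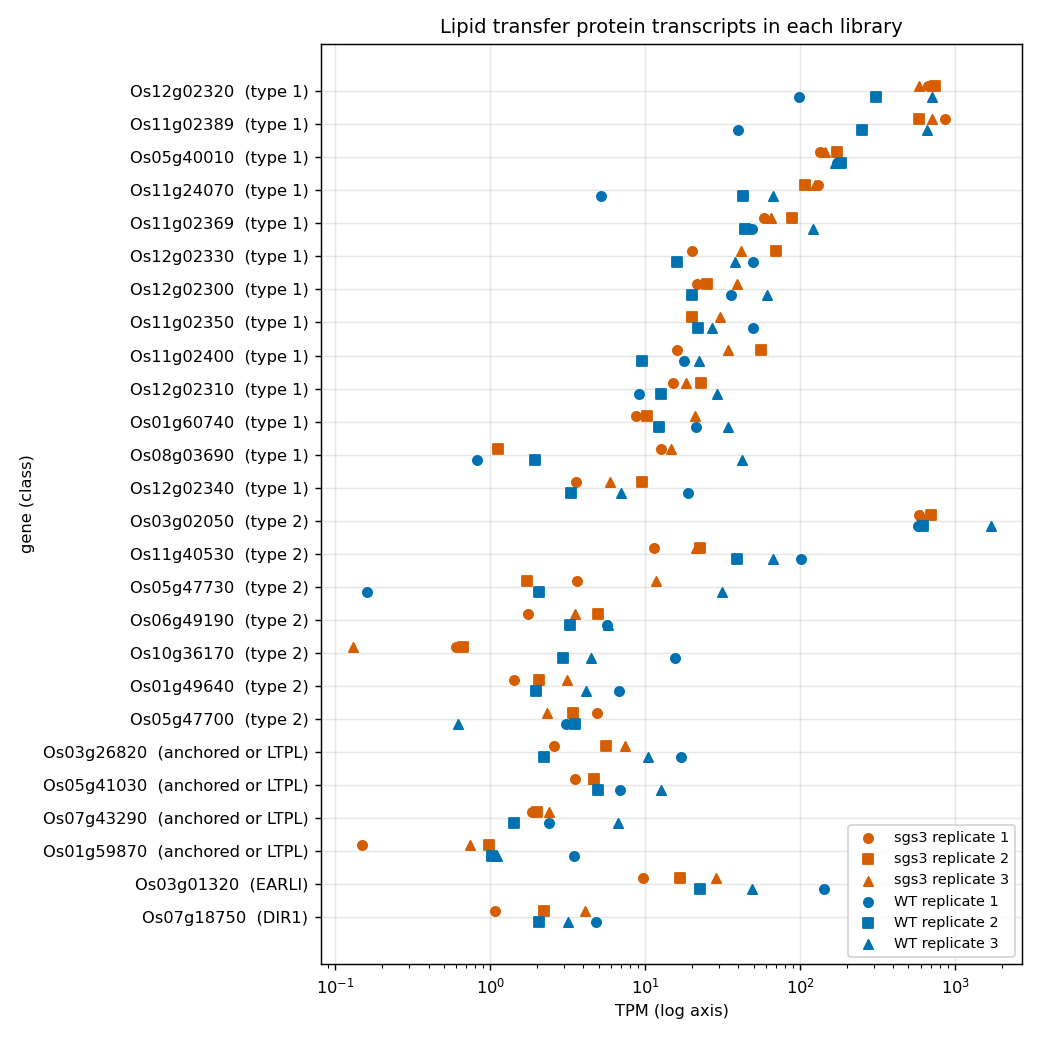
TPM of the tested lipid transfer genes in each of the 6 libraries, on a horizontal log axis. For each gene the sgs3 libraries are drawn in the row above the WT libraries. In LOC_Os11g24070 the sgs3 values are higher than every WT value, and in LOC_Os10g36170 and LOC_Os11g40530 they are lower. In the abundant LOC_Os03g02050 and LOC_Os05g40010 the groups overlap.

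The type 1 class, the longer classical form, includes 3 genes annotated as LTP 1. LOC_Os11g02389, annotated as LTP 1, had 866, 586 and 705 TPM in sgs3 grains, against 39.5, 252 and 656 TPM in WT grains. The 2 highest libraries were mutant, but WT replicate 3 reached above sgs3 replicate 2, so the groups overlapped on TPM. After scaling they did not overlap. By limma, the difference on the log2 scale (sgs3 minus WT) was 1.91 with an SE of 0.89 (adjusted p = 0.110), and scaling made it 3.01 with an SE of 1.08 (adjusted p = 0.114). Without WT replicate 1 it was 0.80 on TPM.

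LOC_Os12g02320, its LTP 1 counterpart on chromosome 12, had 668, 742 and 582 TPM in sgs3 grains, against 97.6, 311 and 709 TPM in WT grains. Again WT replicates 1 and 2 were low and WT replicate 3 stood among the mutant libraries on TPM. After scaling every mutant library was above every WT library. Its log2 difference of 1.24 had an SE of 0.67 (adjusted p = 0.157, limma), and with scaling it was 2.35 with an SE of 0.83 (adjusted p = 0.112). On TPM it was 0.49 without WT replicate 1 and 1.92 without WT replicate 3. Both genes have the same best database protein in the deposited annotation, so the authors' counting could have split reads between them and the separate levels are uncertain.

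LOC_Os11g24070, the third gene annotated as LTP 1, had 130, 108 and 125 TPM in sgs3 grains, against 5.15, 42.8 and 66.8 TPM in WT grains. Every mutant library was above every WT library, and it was the single member with higher values in all sgs3 libraries on TPM, beside 3.68% of all tested genes. At 2.21 with an SE of 0.79, its log2 difference missed the threshold (adjusted p = 0.0597, limma). With scaling it was 3.24 with an SE of 0.95 (adjusted p = 0.0881). Without WT replicate 2 it passed (2.57, limma adjusted p = 0.0273), and it missed without any 1 of the other 5 libraries. Without WT replicate 1 the difference was 1.16. The annotation gives this gene the same best Swiss-Prot protein as LOC_Os11g02389 and LOC_Os12g02320, but another best protein in the NR database. Reads shared with those genes could have entered its level, which was not tested.

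Summed, the 3 LTP 1 genes had 1664, 1435 and 1412 TPM in sgs3 grains, against 142, 605 and 1432 TPM in WT grains. The WT libraries differed from one another more than the mutant libraries did, with WT replicate 1 lowest and WT replicate 3 within the mutant range. Transcripts of oil bodies and embryo or aleurone globulins, a list of 16 genes that marks the aleurone and the embryo, had the same order among WT libraries. Its sum was 6935, 8337 and 8211 TPM in sgs3, against 1449, 5056 and 9696 TPM in WT. Of these 16 genes, 11 were tested and 1 rose, a peroxygenase (LOC_Os04g43200, 1.58, limma adjusted p = 0.0473), while none passed after scaling. Globulin-1 S (LOC_Os03g46100), an embryo and aleurone storage protein, had 2271, 2498 and 2652 TPM in sgs3, against 18.2, 1484 and 3594 TPM in WT. A second gene with the same description, LOC_Os08g15430, was listed at 0 in all 6 libraries, and it was the only 1 of the 16 genes that was. A list of 45 embryo genes, 5 of them listed at 0 throughout, summed to 730, 728 and 1353 TPM in sgs3, against 346, 403 and 2102 TPM in WT. On TPM, 1 of its 21 tested genes fell and none rose. The shares of all tested genes, for both lists, were 26.3% lower and 1.55% higher on TPM and 0.978% lower and 1.6% higher after scaling. Green tissue genes, 17 of 94 at 0 throughout, summed to 34.6 to 486 TPM in sgs3 and 52.0 to 454 TPM in WT. The part of these tissues in the LTP 1 values was not tested.

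The other type 1 genes had mixed directions. Over the 13 type 1 genes tested, of 16 listed, the log2 fold change was positive in 8 and negative in 5, with a median of 0.27 and a range from -0.70 to 2.21. After scaling it was positive in all 13, with a median of 1.22, and no type 1 gene passed on either scale. LOC_Os05g40010, described after the apple allergen Mal d 3, was the steadiest abundant member, with 135, 174 and 144 TPM in sgs3 grains, against 174, 184 and 169 TPM in WT grains. Its groups overlapped by a narrow margin and its log2 difference was -0.22 with an SE of 0.34 (adjusted p = 0.593, limma), which scaling turned to 0.89 with an SE of 0.37 (adjusted p = 0.150).

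LOC_Os11g02400, a probable LTP 3, had 16.0, 55.9 and 34.4 TPM in sgs3 grains, against 17.8, 9.58 and 22.4 TPM in WT grains. Of the mutant libraries, replicates 2 and 3 were above every WT library on TPM and replicate 1 was inside the WT range. After scaling every mutant library was above every WT library. On TPM its log2 difference was 0.96 with an SE of 0.51 (adjusted p = 0.150, limma), and on scaled values 2.02 with an SE of 0.40 (adjusted p = 0.0510). With size factors taken over all genes, an alternative chosen after seeing the data, it passed with an adjusted p of 0.0456 (limma), and it also passed on the scaled values without sgs3 replicate 3 (adjusted p = 0.0373). On TPM the difference was 0.56 without sgs3 replicate 2 and 0.63 without WT replicate 2.

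LOC_Os11g02369 (LTP 2A) had 58.6, 88.0 and 64.8 TPM in sgs3 grains, against 48.6, 43.8 and 121 TPM in WT grains, and LOC_Os12g02310 (LTP 2B) had 15.1, 22.8 and 18.4 TPM, against 9.19, 12.7 and 29.3 TPM. In both, WT replicate 3 was the highest library on TPM and the mutant libraries stood between the WT extremes. The genes named LTP 3, LOC_Os11g02350 and LOC_Os12g02300, lay between 19.7 and 39.1 TPM in sgs3 grains and between 20.2 and 60.9 TPM in WT grains. LOC_Os12g02330 had 20.1, 70.2 and 41.5 TPM in sgs3 grains, against 49.4, 15.9 and 37.8 TPM in WT grains. Its groups overlapped on TPM but not after scaling, where it did not pass (1.40, limma adjusted p = 0.0881). LOC_Os08g03690 varied widely within each group, with 12.6 and 14.6 TPM in sgs3 replicates 1 and 3 and under 2 TPM in sgs3 replicate 2, against 0.82, 1.94 and 42.03 TPM in WT. The remaining type 1 genes tested, LOC_Os12g02340 and LOC_Os01g60740, also overlapped between the groups.

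Several type 1 genes come as counterparts whose locus names place 1 on chromosome 11 and 1 on chromosome 12, and the balance within such a pair does not depend on scaling between libraries. The 4 pairs were chosen after their values were seen, so their values are a description. For LTP 1, the copy named for chromosome 11 gave 56.5%, 44.1% and 54.8% of the pair's TPM in sgs3, against 28.8%, 44.8% and 48.1% in WT, with overlap at sgs3 replicate 2. For LTP 2A and LTP 2B it gave 77.9% to 79.6% in sgs3 and 77.5% to 84.1% in WT, so the copy named for chromosome 11 was the higher one in every library. For the LTP 3 pair the share was 43.6% to 47.8% in sgs3 and 30.7% to 58.0% in WT. For LOC_Os11g02400 and LOC_Os12g02330 it was 44.4%, 44.3% and 45.3% in sgs3, against 26.5%, 37.6% and 37.2% in WT, and of the 4 pairs this was the one whose groups did not overlap. The members of the LTP 3 pair also share their best database protein, and reads of near-identical copies may have been split in any of the pairs, so these balances are uncertain.

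**Figure D2:**
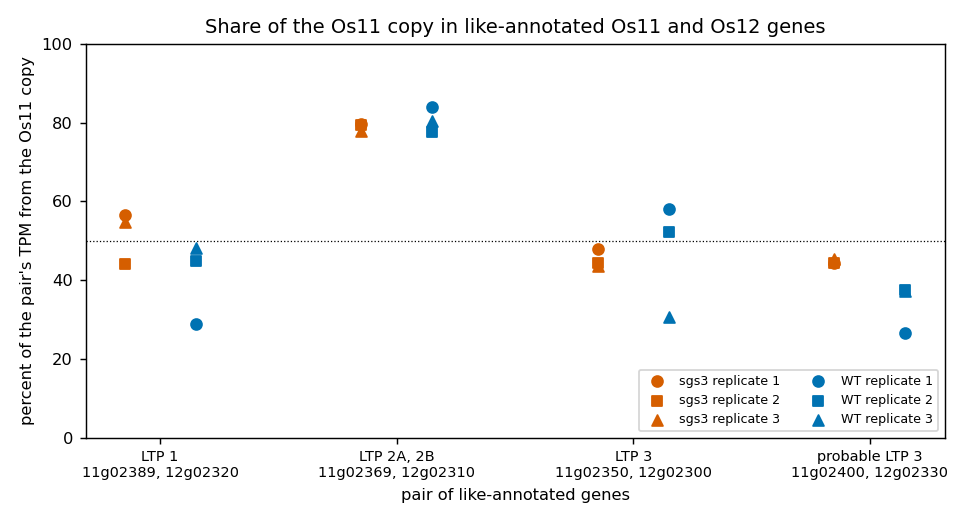
Percent of each pair's summed TPM that came from the copy named for chromosome 11, per library, with sgs3 left of WT. The sgs3 libraries lie above every WT library in the pair LOC_Os11g02400 and LOC_Os12g02330, between 44.3% and 45.3% against 26.5% to 37.6%, and overlap with WT libraries in the other pairs.

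Both members that fell were type 2 genes, 1 of which entered the test only through the WT group. LOC_Os11g40530, a probable LTP 2, had 11.4, 22.7 and 21.2 TPM in sgs3 grains, against 101, 39.3 and 67.2 TPM in WT grains. Every mutant library was below every WT library. It fell by 1.81 on the log2 scale with an SE of 0.45 (adjusted p = 0.0436, limma). Scaled values differed by -0.73 with an SE of 0.25 (adjusted p = 0.105), and there the groups still did not overlap but the gene no longer passed. On TPM it passed without sgs3 replicate 3 (adjusted p = 0.0281) or WT replicate 2 (0.0120) and missed without any 1 of the other 4 libraries (limma adjusted p between 0.0591 and 0.188).

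LOC_Os10g36170, annotated as a type 2 protein, had 0.60, 0.67 and 0.13 TPM in sgs3 grains, against 15.7, 2.95 and 4.50 TPM in WT grains. The mutant libraries were all under 1 TPM and all WT libraries were above, so the gene entered the test through the WT group. It fell by 2.30 with an SE of 0.52 (adjusted p = 0.0436, limma), on a log2 scale with 1 TPM added that understates the change of low genes. With 0.1 TPM added in place of 1 the difference was -3.60. Scaling left -1.57 with an SE of 0.41 (adjusted p = 0.0800). It passed without sgs3 replicate 3 (limma adjusted p = 0.0313), missed without sgs3 replicate 1 (0.188) or 2 (0.155), and fell under the filter when a WT library was left out.

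The most abundant member was the type 2 gene LOC_Os03g02050, which had 583, 696 and 599 TPM in sgs3 grains, against 573, 618 and 1692 TPM in WT grains. On TPM the mutant libraries and WT replicates 1 and 2 had similar levels, and WT replicate 3 stood far above. Scaled values were 1157, 1013 and 627 in sgs3, against 283, 573 and 1100 in WT, so WT replicate 3 then lay within the mutant range. A log2 difference of -0.43 with an SE of 0.52 (adjusted p = 0.500, limma) turned with scaling to 0.68 with an SE of 0.57 (adjusted p = 0.424). Without WT replicate 3 it was 0.07 on TPM. In WT replicate 1, where the LTP 1 genes were lowest, this gene was at the level of the mutant libraries on TPM and below them after scaling.

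Of 13 type 2 genes, 7 were tested, and their log2 fold change was positive in 2 and negative in 5 on TPM (median -0.46) and positive in 5 after scaling (median 0.41). LOC_Os05g47730, described as AKCS9, ranged from 1.74 to 11.7 TPM in sgs3 and from 0.16 to 31.3 TPM in WT. LOC_Os05g47700 had 4.88, 3.43 and 2.32 TPM in sgs3, against 3.10, 3.52 and 0.62 TPM in WT. LOC_Os01g49640 and LOC_Os06g49190 stayed under 7 TPM in every library. None of these 4 genes passed on either scale, and their groups overlapped on TPM.

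The makeup of the family differed between the groups. Type 1 genes gave 75.9%, 71.4% and 72.6% of all lipid transfer TPM in sgs3 grains, against 39.4%, 56.9% and 51.1% in WT grains. Type 2 genes gave 23.3%, 27.4% and 25.5% in sgs3, against 48.4%, 40.98% and 46.6% in WT. Neither share overlapped between the groups. The means were 73.3% ± 2.34 in sgs3 and 49.1% ± 8.93 in WT for type 1 and 25.4% ± 2.02 in sgs3 and 45.3% ± 3.86 in WT for type 2 (SD, n = 3 each).

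The balance rested on few genes. The 3 LTP 1 genes together with LOC_Os03g02050 made up 79.6% to 86.4% of the family's TPM in sgs3 and 49.0% to 80.6% in WT. The ratio of the summed LTP 1 genes to LOC_Os03g02050, which no scaling between libraries can alter, was 2.85, 2.06 and 2.36 in sgs3, against 0.248, 0.980 and 0.846 in WT. In every mutant library the LTP 1 genes were above the type 2 gene, and in every WT library they were below it. The order is the same when WT replicate 1 is set aside. These shares and ratios are sums over members and carry no p-value, and the ratio was chosen after the values were seen. Starchy endosperm transcripts were also higher in every sgs3 library, with sums of 425083, 367351 and 376132 TPM in sgs3, against 43095, 302806 and 232377 TPM in WT. Of the 42 tested genes of that list 11 rose, 3 fell and 28 did not pass on TPM, and 9 rose and none fell after scaling. Of its 48 genes, 2 were listed at 0 in all libraries. Those that rose include the prolamin gene LOC_Os05g26250, with 0, 0 and 0.10 TPM in WT, which entered the test only through the sgs3 group. Over all tested genes, 1.55% rose and 26.3% fell on TPM, and 1.6% rose and 0.978% fell after scaling. The part of starchy endosperm in the makeup was not tested.

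**Figure D3:**
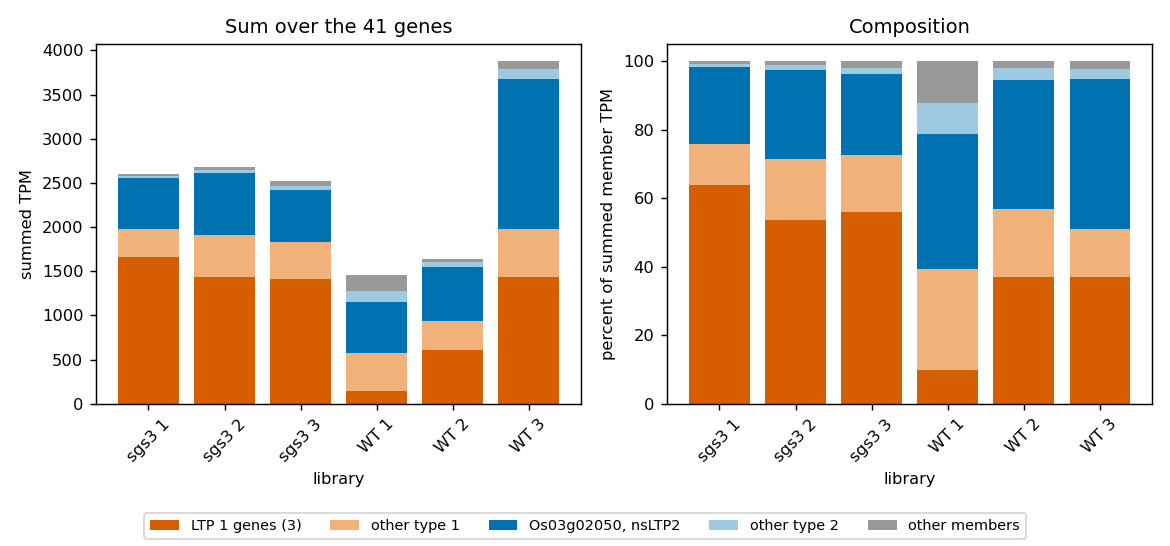
Summed lipid transfer TPM in each library (left panel) and its composition in percent (right panel), with the sgs3 libraries left of the WT libraries. Bars are split into the LTP 1 genes, other type 1 genes, LOC_Os03g02050, other type 2 genes and all other members. Type 1 genes take 71.4% to 75.9% in sgs3 and 39.4% to 56.9% in WT. EARLI genes are drawn within the other members and reach 9.84% in WT replicate 1 alone.

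EARLI genes encode proline-rich relatives known in Arabidopsis from cold and defence responses. Of 5 such genes, LOC_Os03g01320 (EARLI 1) was the only one tested, with 9.73, 16.7 and 28.5 TPM in sgs3 grains, against 143, 22.5 and 49.0 TPM in WT grains. WT replicate 1 was far above the rest, and sgs3 replicate 3 was above WT replicate 2. Its log2 difference was -1.64 with an SE of 0.66 (adjusted p = 0.0790, limma), or -0.57 with an SE of 0.44 on scaled values (adjusted p = 0.384). Without WT replicate 2 it passed (-2.26, limma adjusted p = 0.0148), and without WT replicate 1 it was -0.95 on TPM. Dividing cell transcripts, a list of 43 genes of DNA replication and mitosis, were also highest in WT replicate 1, with sums of 223, 301 and 601 TPM in sgs3, against 2119, 632 and 1250 TPM in WT. Of its 34 tested genes 15 fell, 2 rose and 17 did not pass on TPM, while after scaling 2 rose and none fell. The shares of all tested genes were 26.3% lower and 1.55% higher on TPM and 0.978% lower and 1.6% higher after scaling. The 2 that rose, LOC_Os09g14590 and LOC_Os03g38720, were at 0 TPM in every WT library. They entered the test only through the sgs3 group, so the filter fixed their direction. Of the 43 genes, 2 were listed at 0 in all libraries. The part of dividing cell transcripts in the EARLI 1 values was not tested.

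Anchored and LTPL genes had low levels. All 4 that were tested, of 6, had a negative log2 fold change on TPM (median -0.65), none passed, and 3 were positive after scaling. LOC_Os05g41030 is described after LTPG2 of Arabidopsis, an anchored protein that helps to export surface lipids, and had 3.53, 4.66 and 4.60 TPM in sgs3 grains, against 6.89, 4.97 and 12.7 TPM in WT grains. LOC_Os01g59870 had 0.15, 0.98 and 0.74 TPM in sgs3, against 3.48, 1.03 and 1.11 TPM in WT, so it entered the test through the WT group and its groups could not overlap. In both genes every mutant library was below every WT library on TPM, and the limma adjusted p was 0.156 for LOC_Os05g41030 and 0.135 for LOC_Os01g59870. With the 2 members that fell, these made up the 4 members lower in all sgs3 libraries, beside 52.6% of all tested genes. For LOC_Os10g36170 and LOC_Os01g59870 the filter fixed this direction, so nothing is read from the count. LOC_Os03g26820 (OsLTPL1) ranged from 2.57 to 7.44 TPM in sgs3 and from 2.22 to 16.97 TPM in WT.

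DIR1, a lipid transfer protein that carries a long-distance defence signal in Arabidopsis, had a single counterpart in the list. LOC_Os07g18750 had 1.08, 2.21 and 4.09 TPM in sgs3 grains, against 4.84, 2.06 and 3.16 TPM in WT grains. The groups overlapped, and its log2 difference was -0.38 with an SE of 0.42 (adjusted p = 0.468, limma), or 0.41 on scaled values.

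**Figure D4:**
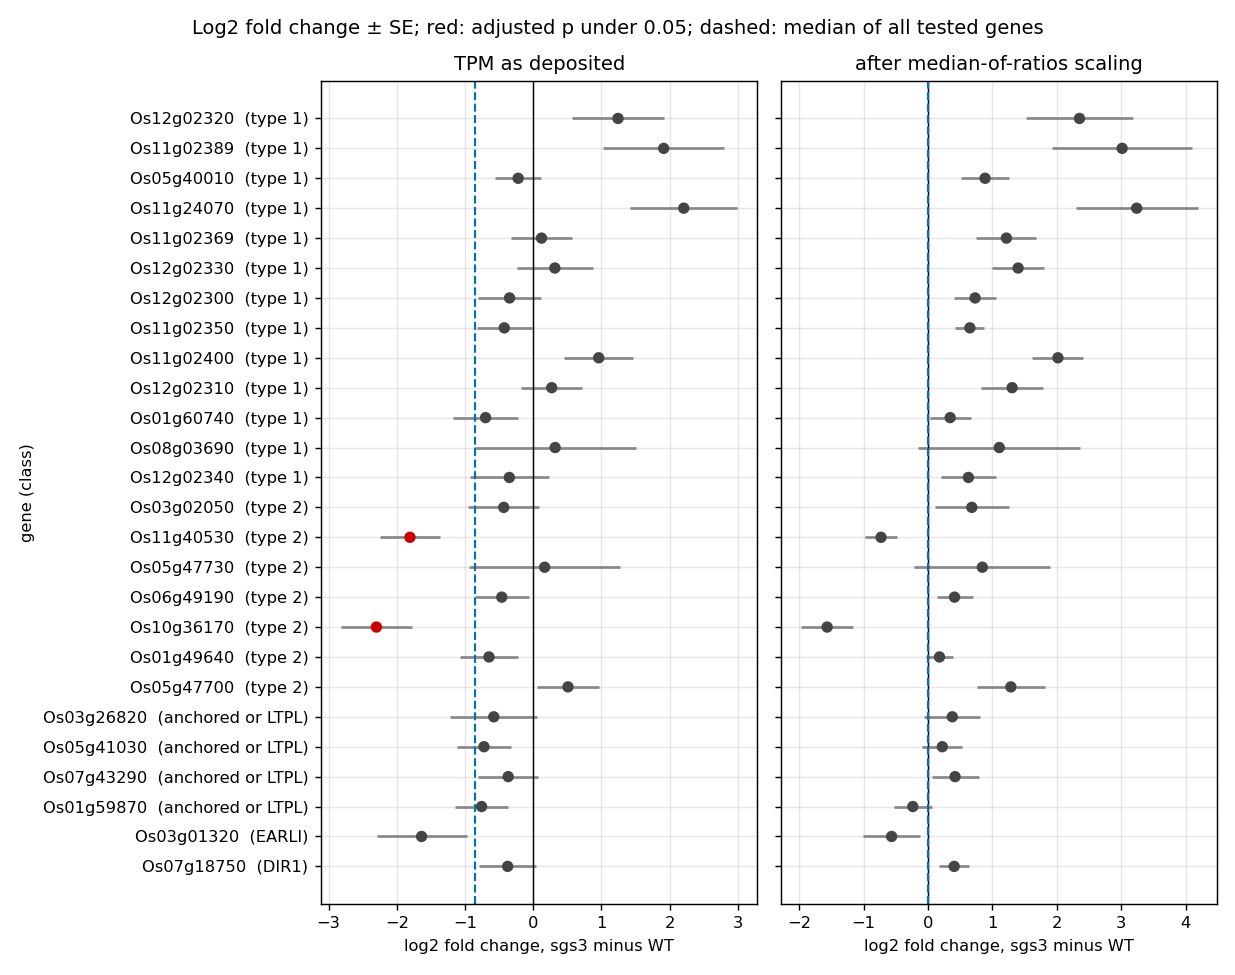
Log2 fold change (sgs3 minus WT) of the 26 tested lipid transfer genes on TPM and after median-of-ratios scaling, with standard errors. The members' median is -0.36 on TPM, where that of all tested genes is -0.86, and 0.66 after scaling, where it is 0.0028.

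The other 15 members were near or at the bottom of the scale in grains of both groups. Of these, 5 were listed at 0 in all 6 libraries and the other 10 never exceeded 7.20 TPM, a value of LOC_Os01g12020 in WT replicate 1. That gene is described as a lipid transfer protein, but its best hits in the protein databases are an endoglucanase, although the annotation also gives it the LTP_2 domain. LOC_Os10g36170 is the highest of a run of type 2 genes with neighbouring locus names. The 5 others of that run, LOC_Os10g36070 to LOC_Os10g36160, reached at most 0.61 TPM.

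Most members share a conserved domain that the rule did not use. The deposited annotation gave the LTP_2 domain to 36 of the 41 genes, the related Tryp_alpha_amyl domain to 32, the Hydrophob_seed domain to 8 and no domain to 2. Among the 26 tested members, the library with the highest TPM was WT replicate 3 for 10, WT replicate 1 for 9, WT replicate 2 for 1 and a mutant library for 6.

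The surface lipids that these proteins are linked to were followed through a list of 158 cutin and wax genes, chosen by description. Of 36 tested, none rose, 4 fell and 32 did not pass on TPM, beside backgrounds of 1.55% higher and 26.3% lower. Its tested genes had a median log2 difference of -0.49 on TPM and 0.23 on scaled values. The pattern also caught 1-acyl-sn-glycerol-3-phosphate acyltransferases, whose descriptions name neither cutin nor wax, so the counts are not of cutin and wax genes alone. Genes of this kind include LOC_Os10g35390, which was among those that fell (limma adjusted p = 0.0466), and LOC_Os01g57360. LOC_Os04g42860, described as the GDSL lipase LTL1, fell to 0.17, 0.89 and 1.07 TPM in sgs3 grains, against 13.8, 3.09 and 7.47 TPM in WT grains (limma log2 difference -2.27 with an SE of 0.49, adjusted p = 0.0436; scaled -1.59, adjusted p = 0.0580). LOC_Os01g63580, described as GPAT6, an acyltransferase of cutin synthesis in Arabidopsis, fell to 2.38, 2.66 and 5.57 TPM in sgs3, against 36.7, 9.24 and 16.7 TPM in WT (limma log2 difference -2.13 with an SE of 0.52, adjusted p = 0.0436; scaled -1.17, adjusted p = 0.0789). The most abundant genes of the list did not pass. LOC_Os01g57360, a probable acylglycerolphosphate acyltransferase, had 18.3 to 23.7 TPM in sgs3 and 16.6 to 44.5 TPM in WT, and LOC_Os07g34730, described as GPAT-3, had 13.4 to 17.3 TPM in sgs3 and 22.5 to 37.2 TPM in WT (limma adjusted p = 0.0565). After scaling no gene of the list fell and 1 rose, beside backgrounds of 0.978% lower and 1.6% higher. It was the cytochrome P450 86B1 gene LOC_Os03g04680 (1.15, SE 0.19, limma adjusted p = 0.0272). With 1.10, 1.02 and 1.63 TPM in sgs3, against 0.28, 0.24 and 0.61 TPM in WT, it was near the floor. The gene entered the test only through the sgs3 group, so the filter fixed its direction.

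A second list, of relatives with the same cysteine pattern, held 46 genes by description, 8 of them also members here. Of its 13 tested genes 1 fell and none rose on TPM, beside 26.3% lower and 1.55% higher of all tested genes. None passed after scaling, beside 0.978% lower and 1.6% higher. The medians were -0.62 on TPM and 0.22 after scaling, against -0.86 and 0.0028 over all tested genes. The pattern for DIR1 also caught 14 dirigent or SDIR1 genes, which are not lipid transfer proteins, and 5 of these were tested, so that only 4 tested genes of the list were relatives outside the members. The gene that fell was one of the dirigent genes, LOC_Os11g42550, with 0, 0.32 and 0.54 TPM in sgs3, against 2.99, 1.97 and 1.23 TPM in WT (limma log2 difference -1.23 with an SE of 0.31, adjusted p = 0.0436; scaled adjusted p = 0.0978). It too entered the test only through the WT group, where it was high. The most abundant was also a dirigent gene, LOC_Os01g61890, with 30.1, 34.7 and 39.1 TPM in sgs3, against 72.7, 47.5 and 49.7 TPM in WT (limma adjusted p = 0.129), and LOC_Os03g01320 (EARLI 1) was next.

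Splicing could be read for a single member. Among 5134 exon-skipping, 211 mutually exclusive exon, 2495 and 1349 alternative splice site and 3157 retained intron events in the deposited tables, 1 lay in a lipid transfer gene. It was a retained intron of LOC_Os05g40010. The whole intron-containing exon, with the exon parts on both sides, spans 23508004 to 23508457 on chromosome 5, plus strand, counted from 1. The coordinates are in a genome build not given in the sources used here. The intron-containing form had an inclusion level of 0.973 to 1 in 3 sgs3 libraries and of 1 in both WT libraries, with 203 to 542 reads per library. The means were 0.991 in sgs3 and 1 in WT, a difference of -0.009 (exact two-sided permutation p = 1, where 3 against 2 libraries cannot go below 0.2). The authors' deposited table also gave a p-value of 1 and an FDR of 1 for it.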

How the data were processed

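Gene levels were TPM computed by the authors and deposited with 2 decimals. The submitters' processing notes name, with no roles, StringTie, RSEM, HISAT2 2.1.0, DESeq2 1.12.4 and Bowtie2, and the libraries came from a SMARTer kit per the labels. For splicing, the authors deposited each event's inclusion level (a fraction), its junction reads and their own p-value and FDR. Their read headings contradict the inclusion headings, which were followed. Libraries within a cell of these tables carry no replicate number.

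Genes with at least 1 TPM in at least 3 of 6 libraries were tested with limma 3.58.1 (R 4.3.3, mean-variance trend, 4 residual degrees of freedom) on log2(TPM + 1), sgs3 minus WT, with Benjamini-Hochberg adjustment over all 16352 genes. Fold changes are on that scale. Scaling used median-of-ratios size factors over the tested genes. The fit was tried on simulated data, with spreads capped at the median spread and no shift between libraries. That trial does not show how the fit performs on libraries as uneven as these. The splicing event, with at least 20 reads in every library, had an exact permutation test. Python 3.11.15 was used for tables. Members and lists were chosen with earlier results of these data known. Genes were named if called, with a mean of at least 100 TPM, or among the 5 uncalled members with the largest fold change. Of the other lists, the 2 most abundant genes and the 2 called genes with the smallest p were named. Members beyond these are given to account for the list, and the genes LOC_Os03g04680, LOC_Os10g35390, LOC_Os04g43200, LOC_Os03g46100 and LOC_Os08g15430 were named after their values were seen. Alternatives were other filters, pseudocounts, fits, scalings, a replicate block and each library left out. No coordinates or sequences of the genes were used here.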

Additional observations from a re-analysis of the deposited data

How the results depend on the processing

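The count of 2 lipid transfer genes that fell became 0 after scaling, with no filter, with a replicate block, with scaling and block together and with size factors over all genes (chosen after seeing the data), and 1 at a minimum of 5 TPM. With each library left out it ran from 0 to 3 (3 without WT replicate 2; 0 without WT replicates 1 or 3 or sgs3 replicates 1 or 2). The count that rose, 0, became 1 with size factors over all genes and ran from 0 to 1 with libraries left out. Genes of the cutin and wax list that fell numbered 4, and 0 after scaling, with no filter, with the block or with both, and 0 to 13 with libraries left out (13 without WT replicate 2). Those that rose numbered 1 after scaling and 0 to 2 with libraries left out. The 1 gene of the relatives list that fell, a dirigent gene, became 0 after scaling, with no filter, at 5 TPM, with the block or with both, and 0 to 2 with libraries left out. The summed TPM difference of 273 was 2312 after scaling. Signs turned after scaling, with or without the block, for LOC_Os03g02050 (0.68, and -0.71 to 1.14 over both scales with libraries left out), LOC_Os05g40010 (0.89, -0.33 to 1.15), LOC_Os01g61890 (0.42, -0.79 to 0.56), LOC_Os01g57360 (0.85, -0.51 to 1.02) and LOC_Os07g34730 (0.10, -1.15 to 0.21). The cause of these changes was not tested. A pseudocount of 0.1 and a fit without the trend changed no count of lipid transfer, cutin and wax or relatives calls by over 1.5 times, though with that pseudocount LOC_Os10g36170 differed by -3.60 in place of -2.30 and LOC_Os11g42550 by -2.77 in place of -1.23. Over all genes the calls numbered 4548, 421 after scaling, 107 with no filter, 132 with the block, 110 with both, and 39 to 7658 with libraries left out. Same-numbered libraries correlated at -0.527, 0.212 and -0.091 across gene deviations, and differently numbered ones at -0.557 to 0.541. With 3 libraries per group, deviations from the group mean depend on one another, so these values cannot decide whether the numbers pair the samples. With 4 residual degrees of freedom and unknown depth, small differences are not detectable in these data.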

Other observations

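A domain outside the naming rule picked out a further gene with a high level. Besides the 41 members, 64 genes carried the LTP_2 domain without the words lipid transfer protein in their description, and 51 of these had no description at all. Their summed level was 206, 249 and 465 TPM in sgs3 grains, against 3527, 384 and 1018 TPM in WT grains. The gene with the highest mean among them was LOC_Os03g25350, chosen after its values were seen, which had 12.8, 61.0 and 253 TPM in sgs3, against 3075, 208 and 752 TPM in WT. WT replicate 1 was far above all other libraries, and sgs3 replicate 3 was above WT replicate 2, so the groups overlapped. The log2 difference (sgs3 minus WT) was -3.71 with an SE of 1.17 (adjusted p = 0.0480, limma), and on scaled values it did not pass (-2.61, adjusted p = 0.127). Without this gene the sums were 193, 188 and 211 TPM in sgs3, against 452, 176 and 265 TPM in WT, and the groups overlapped. Of the 18 tested genes of this kind, limma called 3 lower and 0 higher in sgs3 on TPM, beside 26.3% and 1.55% of all tested genes. The share of lower calls did not exceed this background. On scaled values it called 1 in each direction, beside backgrounds of 0.978% lower and 1.6% higher. The gene that fell on both scales was LOC_Os06g49770, whose best database protein is a non-specific lipid transfer protein, with 0.87, 1.29 and 2.90 TPM in sgs3, against 12.7, 6.45 and 8.98 TPM in WT (limma adjusted p = 0.0436, and 0.0453 scaled). LOC_Os01g42210 fell on TPM alone (limma adjusted p = 0.0436) and entered the test through the WT group. LOC_Os05g06780, whose best database protein is also a non-specific lipid transfer protein, rose on scaled values alone (limma adjusted p = 0.0474), with 5.12, 6.17 and 3.47 TPM in sgs3, against 3.28, 1.01 and 0.69 TPM in WT. These genes too were chosen after their values were seen.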
